A study of Homo sapiens with 4 samples.

Results

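Skipped exon events were examined in 8 genes of the U1 small nuclear ribonucleoprotein (snRNP) and its helpers. SNRNP70, SNRPA and SNRPC encode the U1-specific proteins, namely U1-70K and the A and C proteins. LUC7L, LUC7L2 and LUC7L3 encode the human relatives of a yeast U1 protein, and TIA1 and TIAL1 encode RNA-binding proteins that help U1 bind weak 5′ splice sites. An event is an exon with its neighbours on either side, counted as included or skipped by reads across the splice junctions. The members were all rows of the authors' skipped exon table with one of these gene symbols. The table held 66 such events, of which 64 averaged 20 or more junction reads over the 4 libraries, out of 54503 events of all genes at that minimum. The 64 events covered 53 distinct exons and 48 distinct skipping junctions, so they are not independent of each other. LUC7L had 16 of them, LUC7L3 11, SNRNP70 9, TIA1 8, TIAL1 6, SNRPA and SNRPC 5 each, and LUC7L2 4.

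The cells were 293T, a human embryonic kidney line that carries the SV40 large T antigen. One group received an antisense oligonucleotide (ASO) of the gapmer type against the small nucleolar RNA SNORD89, and the other has its treatment listed as none, with 2 biological replicates each. The labels of all 4 samples carry the same transfection text (70 nM ASO with a lipid reagent, new medium after 24 h, RNA after 48 h), and they name no control oligonucleotide. Poly(A) RNA was sequenced as paired reads of 150 bp to compare splicing with and without the knockdown. Neither the table's header nor the labels say which of its sets was treated, so directions are given only as first set against second set, and libraries by their place in a cell of the table, which pairs nothing across sets.

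U1 recognises most introns by pairing the start of its RNA with the 5′ splice site. U1-70K and the A protein bind stem-loops of the RNA, and the C protein steadies the pairing with the splice site. LUC7-like proteins influence which 5′ splice sites are used, and TIA1 and TIAL1 bind U-rich stretches just downstream of a splice site and contact the C protein. Many genes of splicing factors contain exons that bring in an early stop codon, and transcripts with such an exon can be removed by nonsense-mediated decay (NMD).

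The exons with an early stop codon are shown first, because 5 of the 11 events that passed the authors' error threshold were of this kind. These were 3 forms of 1 SNRNP70 exon, which share skipping reads, and 2 LUC7L3 exons. Stop exons were not counted in the genes outside the members. The bases run 5′ to 3′ from the first base of the exon to the stop codon, which is in capitals, as read from GENCODE release 29 transcripts annotated as NMD targets.
SNRNP70, 60-nt exon: ccaccacgcagctggcttgcagcTGA
SNRPA, 86-nt exon: tggtgccatctcagcTGA
LUC7L3, 193-nt exon: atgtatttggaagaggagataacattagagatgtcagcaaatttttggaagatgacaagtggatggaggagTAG
LUC7L3, 59-nt exon: aagaaaagaggattcttctcTAG
LUC7L3, 126-nt exon: ggcagaagataagattattggacTGA
TIA1, 66-nt exon: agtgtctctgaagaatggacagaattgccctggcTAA
TIAL1, 376-nt exon: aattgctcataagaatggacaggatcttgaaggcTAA
The TIA1 and TIAL1 stretches both reach TAA after 37 bases and were identical at 25 of the 37 positions (67.6%). SNRNP70 has a longer form of its exon, of 72 nt, and one of 1474 nt, which start at the same base and so read into the same stop codon.

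The call rule asked for a false discovery rate (FDR) under 0.05 and a difference in inclusion level of at least 0.1, both from the authors' deposited table. It called 0 of the 64 events, against 1477 of 54503 events of all genes (2.71%). At the FDR alone, a rule added after this count was seen, 11 of the 64 events (17.2%) passed in the authors' deposited table, all 11 of them higher in the first set. Of all tested events 5.72% passed that rule, 3.03% as higher and 2.68% as lower in the first set. Member events were deep, with a median of 819.5 reads against 190 for all events. Among events with a mean of at least 500 reads, 7 of 43 member events (16.3%) passed in the authors' deposited table, all as higher, against 2.23% of all events and 1.43% as higher. Going by the p-values of the authors' deposited table, 15 of the 64 were under 0.05 before adjustment, against 14.3% of all events.

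The 11 events lay in SNRNP70 (3), TIAL1 (3), LUC7L3 (2), TIA1 (2) and LUC7L (1), and in no event of SNRPA, SNRPC or LUC7L2. They used 11 exons but 7 skipping junctions, since events that start or end at the same splice site share their skipping reads. In 10 of the 11 the libraries of the sets did not overlap. The FDR tests the same difference, so this count is no separate support. Its share among passing events of all genes was not computed. Over the 64 events the first set was higher in 43 (67.2%, against 41.3% of all events) and lower in 13 (20.3%, against 53.7%), going by the authors' deposited table. With 48 skipping junctions behind the 64 events, some reads are counted more than once in these shares. Several of the higher LUC7L events rested on 1 skipping read, in library 1 of the second set. Non-overlapping sets with the first set higher were found in 20 events, a pattern seen in 9.36% of all events, and with the first set lower in 3, a pattern seen in 13.6%. The differences were small: the median absolute difference was 0.384 percentage points, against 1.14 over all events. The largest absolute difference, of 14.4 points, was in a LUC7L3 event that did not pass the FDR threshold.

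**Figure D1:**
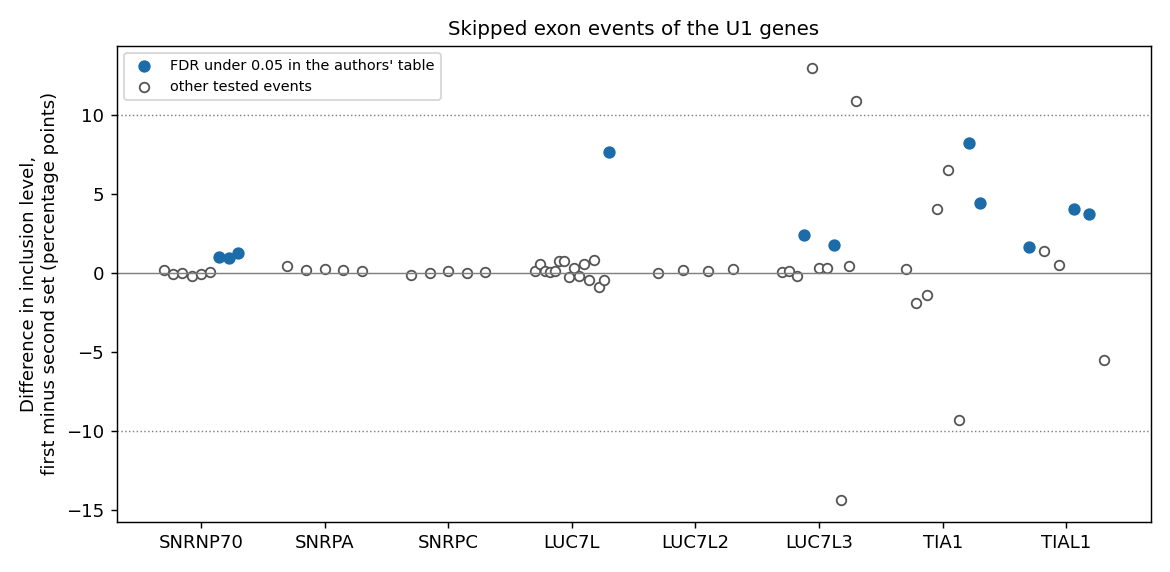
Difference in inclusion level (first minus second set, percentage points) for the 64 tested events of the 8 genes; filled points passed an FDR under 0.05 in the authors' deposited table, and dotted lines mark 10 points. All 11 filled points lie above 0 and under 10 points, and the points of SNRPA, SNRPC and LUC7L2 lie close to 0.

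A quasi-binomial model that takes the spread between libraries of a set as its error gave 13 of the 64 events an unadjusted p under 0.05, against 8.07% of all events. These were the 11 events above, the LUC7L3 66-nt exon and the LUC7L2 192-nt exon. After Benjamini-Hochberg adjustment over all tested events 0 passed, and the smallest adjusted p of a member, from the moderated quasi-binomial fit, was 0.534. No event of any gene passed at that adjustment. With 2 libraries a set this count of 0 does not show that the events were unchanged. The limma test of inclusion against skipping reads on the log2 scale gave 0 adjusted calls and 2 unadjusted ones. On simulated data it recovered 0 of 200 changed events even without added scatter between libraries, so its count of 0 adds no support.

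SNRNP70 encodes U1-70K, which holds the first stem-loop of U1 RNA. Its 60-nt stop exon lies at chr19:49605371-49605430 (hg19, plus strand) within ENSG00000104852.10. Inclusion was 2.09% (95% interval 1.74 to 2.52) and 2.06% (1.69 to 2.49) in first-set libraries, against 1.51% (1.25 to 1.84) and 0.637% (0.481 to 0.844) in second-set ones, from 3845, 3532, 4785 and 5386 reads. These Wilson intervals, scaled by the length of each form, cover counting error only. Both libraries of the first set were higher than both of the second, and the lowest was library 2 of the second set. The authors' deposited table listed a difference of 0.011 (FDR 0.000921), and the log2 odds of inclusion differed by 1.0 (95% interval 0.382 to 1.62, quasi-binomial p = 0.00333, adjusted p = 0.615). Without library 2 of the second set the difference fell from 0.999 to 0.561 points.

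The 72-nt form of this exon, which ends at 49605442, was included at 1.86% and 1.62% in first-set libraries against 0.983% and 0.64% in second-set ones. The 1474-nt form, which ends at 49606844, was included at 2.91% and 2.28% against 1.56% and 1.13%. The sets did not overlap for either form. Their FDRs were 0.00253 and 6.02e-05 in the authors' deposited table, and the log2 odds differed by 1.14 (0.611 to 1.67) and 0.992 (0.595 to 1.39). All 3 forms are measured against the same skipping reads (3733 and 3431 in the first set, 4684 and 5338 in the second), so they are views of 1 exon and not 3 results.

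The 5′ splice sites of this exon can be set beside the start of U1 RNA, since the longer forms contain the bases past the shorter ends. Each is written as the last 3 bases of the exon and the first 6 of the intron, with GT in capitals, and bases 3 to 11 of U1 are in capitals in its first line.
Start of U1 RNA, as DNA: atACTTACCTG
Site that pairs with U1 at every base: cagGTaagt
SNRNP70, 60-nt form: atgGTtggt
SNRNP70, 72-nt form: aggGTttgt
LUC7L, 168-nt exon: caaGTaact
TIA1, 97-nt exon: gatGTaagg
The SNRNP70 forms matched the fully pairing site at 5 of 9 positions each, the LUC7L 168-nt exon at 7 and the TIA1 97-nt exon at 6. The LUC7L and TIA1 sites belong to exons that were almost always included, and are shown for comparison. Sites of the LUC7L 189-nt and SNRPA 110-nt exons, which also had few skipping reads, matched at 5 and 6 positions. Each form was scored only against skipping of the whole exon, so its level does not show how often its own 5′ splice site was used. No conclusion on use of the sites was therefore drawn from the match counts. These are counts of identical letters at sites a longer exon happens to contain, and not a measure of binding.

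The other 6 events of SNRNP70 differed by at most 0.186 points. The deepest, a 157-nt coding exon at chr19:49589662-49589818, was included at 99.8% and 100% in first-set libraries against 99.8% and 99.7% in second-set ones, and the authors' deposited table listed an FDR of 1. Its coding exons were thus near full inclusion in every library, and the stop exon was a minor form.

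SNRPA encodes the A protein of U1, which binds the second stem-loop of U1 RNA. None of its 5 events passed, and all lay within 0.444 points of 0. Its deepest event, the 173-nt coding exon at chr19:41263237-41263409 (plus strand, ENSG00000077312.4), was included at 99.6% and 99.1% in first-set libraries against 98.7% and 99.7% in second-set ones. The sets overlapped, and the authors' deposited table listed an FDR of 1. The 86-nt stop exon was included at 0.225% (0.0962 to 0.527) and 0.186% (0.0722 to 0.477) in first-set libraries against 0.0807% (0.0221 to 0.294) in library 1 of the second. It had no inclusion read among 1992 in library 2 of the second set, where the upper limit of the interval was 0.122%. The order of the sets was that of the SNRNP70 stop exon, but it rested on 5 and 4 inclusion reads against 2 and 0. The quasi-binomial interval of the log2 odds difference, from -0.759 to 5.83, holds changes in both directions. The authors' deposited table listed an FDR of 1.

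SNRPC encodes the C protein of U1, which sits at the junction of U1 RNA and the 5′ splice site. Its 5 events had means of 2823.25 to 7503.5 reads and differences from -0.115 to 0.0928 points, and none passed. The 105-nt coding exon at chr6:34738068-34738172 (plus strand, ENSG00000124562.5) was included at 100% and 99.9% in first-set libraries against 100% in both libraries of the second, with intervals from 99.8% to 100%. At this depth the counting intervals of this exon spanned less than 1 point.

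LUC7L belongs to the LUC7 family, whose members have zinc fingers and a tail rich in arginine and serine. Its 70-nt exon had the largest difference among coding exons that passed the FDR threshold. The exon lies at chr16:278332-278401 (minus strand, ENSG00000007392.12), and release 29 has it in 2 protein-coding and 2 NMD transcripts. Its sequence is shown as that of the exon with this difference, and its length is not a multiple of 3.
LUC7L, 70-nt exon: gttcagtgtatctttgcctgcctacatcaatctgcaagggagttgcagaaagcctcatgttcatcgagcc
Inclusion was 18.4% (15.4 to 21.9) and 17.5% (14.2 to 21.3) in first-set libraries, against 12.2% (9.73 to 15.2) and 8.45% (6.55 to 10.8) in second-set ones, from 437, 354, 425 and 477 reads. Both libraries of the first set were higher than both of the second, and library 2 of the second set was the lowest. The authors' deposited table listed a difference of 0.076 (FDR 0.00279), and the log2 odds differed by 0.952 (0.401 to 1.5, quasi-binomial p = 0.00207, adjusted p = 0.615). Without library 2 of the second set the difference was 5.77 points, in place of 7.64.

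The other 15 LUC7L events differed by at most 0.881 points, and none passed. The 64-nt exon at chr16:258600-258663, like the 70-nt exon included in a minority of transcripts, was at 4.75% and 6.84% in first-set libraries against 6.48% and 6.87% in second-set ones, with overlapping sets, and the authors' deposited table listed its FDR as 1. The deepest event, of the 168-nt exon at chr16:239967-240134, had 1 skipping read in all, in library 1 of the second set.

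LUC7L2 showed no event that passed, and its 4 coding exons were included at over 99% in every library. The 192-nt exon at chr7:139102284-139102475 (plus strand, ENSG00000269955.2) was at 100% in 3 libraries and at 99.5% (99.0 to 99.8) in library 2 of the second set, where all 7 of its skipping reads were found. Its quasi-binomial p of 0.0378 (adjusted p = 0.617) rested on that library, and the authors' deposited table listed an FDR of 1. Release 29 gives this gene identifier the name C7orf55-LUC7L2, while the table gives that name to ENSG00000146963.13, which had 6 further events that are not counted here. Reads of overlapping gene models may thus be split between the symbols.

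LUC7L and LUC7L2 each have a 99-nt coding exon, and both are shown to let the paralogues be compared.
LUC7L, 99-nt exon: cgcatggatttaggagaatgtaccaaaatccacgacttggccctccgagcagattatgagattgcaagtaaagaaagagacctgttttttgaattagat
LUC7L2, 99-nt exon: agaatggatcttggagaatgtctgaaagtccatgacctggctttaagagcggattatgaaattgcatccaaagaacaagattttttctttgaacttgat
The exons were identical at 72 of 99 positions (72.7%). The LUC7L exon was included at 96.7% and 97.2% in first-set libraries against 97.9% and 96.9% in second-set ones, and the LUC7L2 exon at 99.8% and 99.9% against 99.7% and 100%. The sets overlapped for both exons.

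LUC7L3, the most distant of the LUC7 relatives, had 2 events that passed, both in stop exons. The 193-nt exon at chr17:48814648-48814840 (plus strand, ENSG00000108848.11) was included at 5.35% (4.41 to 6.48) and 4.2% (3.34 to 5.27) in first-set libraries, against 4.1% (3.04 to 5.51) and 0.688% (0.348 to 1.36) in second-set ones. Library 2 of the second set stood far under the other 3, which lay close together. The authors' deposited table listed a difference of 0.024 (FDR 0.00229), and the difference of 2.38 points became 0.675 without that library and 4.09 without library 1 of the same set (quasi-binomial p = 0.023, adjusted p = 0.617).

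The 126-nt stop exon of LUC7L3 at chr17:48826580-48826705 was included at 5.91% and 2.61% in first-set libraries against 3.05% and 2.02% in second-set ones. Library 1 of the first set was high and the other 3 were alike, so that the sets overlapped. The authors' deposited table listed a difference of 0.017 (FDR 0.0156), and the difference of 1.73 points became 0.0786 without library 1 of the first set and 3.38 without library 2. The same exon next to another upstream exon had the opposite order, with 93.7% and 77.4% in first-set libraries against 100% in both libraries of the second. That event had 57, 22, 33 and 33 reads, of which 2 and 3 were skipping reads in first-set libraries and 0 in both second-set ones. The authors' deposited table listed an FDR of 0.101 for this event. Its difference of -14.4 points became -22.6 without library 1 of the first set and -6.29 without library 2.

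A 66-nt LUC7L3 exon with a stop codon of a protein-coding transcript, at chr17:48828658-48828723, was at 18.8% and 17.6% in first-set libraries against 9.98% and 4.49% in second-set ones, from 51 to 63 reads a library. The sets did not overlap, but the authors' deposited table listed an FDR of 0.0576. The 59-nt stop exon had 5 and 3 inclusion reads in first-set libraries, against 0 in second-set ones, with upper limits of 0.544% and 0.475% there. A 63-nt exon with the same end differed by 13.0 points from a mean of 24.5 reads, had no read at all in library 2 of the second set, and the authors' deposited table listed its FDR as 1. The deepest coding exon, of 162 nt at chr17:48822013-48822174, was at 100% in 3 libraries and 99.4% in library 2 of the second set.

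TIA1 encodes an RNA-binding protein of stress granules that is also known to act on splicing of the Fas receptor gene. Its 97-nt coding exon lies at chr2:70463211-70463307 (minus strand, ENSG00000116001.11).
TIA1, 97-nt exon: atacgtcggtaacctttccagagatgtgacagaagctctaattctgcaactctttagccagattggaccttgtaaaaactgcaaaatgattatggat
Inclusion was 98.9% (96.8 to 99.6) and 99.1% (96.8 to 99.8) in first-set libraries, against 93.4% (88.0 to 96.5) and 95.8% (90.5 to 98.2) in second-set ones. The sets did not overlap, on the strength of 3 and 2 skipping reads against 9 and 5. The authors' deposited table listed a difference of 0.044 (FDR 0.0129) (quasi-binomial p = 0.0159, adjusted p = 0.615). A 103-nt form that is longer by 6 bases shares those skipping reads and was at 97.4% and 98.1% against 86.7% and 92.4%. The authors' deposited table listed its FDR as 0.0182, and its difference went from 8.2 to 5.33 points without library 1 of the second set.

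The 33-nt exon of TIA1 is the alternative exon that separates its known protein isoforms, and it was the only TIA1 exon near equal use.
TIA1, 33-nt exon: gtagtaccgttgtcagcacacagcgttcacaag
At chr2:70456191-70456223, inclusion was 61.5% (54.8 to 67.7) and 62.1% (54.5 to 69.1) in first-set libraries, against 52.2% (44.1 to 60.2) and 58.3% (50.3 to 65.9) in second-set ones, from 227, 177, 147 and 157 reads. The sets did not overlap but their counting intervals did, and the authors' deposited table listed an FDR of 0.701. The interval of the difference in log2 odds, from -0.263 to 1.03, holds changes in both directions. The same exon between other flanks had 21.5 reads on average and was at 100% in 3 libraries.

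The 66-nt stop exon of TIA1 was the only stop exon besides the shallow LUC7L3 event with a lower mean in the first set. It was at 0.629% and 1.26% in first-set libraries against 4.66% and 1.0% in second-set ones, and the authors' deposited table listed its FDR as 0.247. The sets overlapped, and library 1 of the second set was the high one. The 119-nt exon at chr2:70455476-70455594 had 2 events. In the deeper one it was at 5.65% and 5.18% in first-set libraries, against 13.6% (8.89 to 20.3) and 0% (upper limit 2.57) in second-set ones. Its libraries of the second set thus lay on either side of the first set, and the authors' deposited table listed an FDR of 1. In the other event, with 71 reads on average, it was at 6.1% and 8.61% in first-set libraries against 6.59% and 0% in second-set ones, so that the difference of 4.06 points had the opposite sign. The authors' deposited table listed the FDR of that event as 0.339.

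TIAL1 encodes TIAR, the close relative of TIA1. Its 99-nt coding exon lies at chr10:121341971-121342069 (minus strand, ENSG00000151923.13).
TIAL1, 99-nt exon: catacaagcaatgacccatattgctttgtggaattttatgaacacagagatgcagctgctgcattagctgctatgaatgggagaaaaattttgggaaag
Inclusion was 100% (98.9 to 100) and 98.1% (95.5 to 99.2) in first-set libraries, against 93.5% (89.3 to 96.1) and 96.5% (93.4 to 98.1) in second-set ones, from 565, 424, 324 and 417 reads. Skipping reads numbered 0 and 5 in first-set libraries, against 13 and 9 in second-set ones, and the sets did not overlap. The authors' deposited table listed a difference of 0.04 (FDR 0.0028) (quasi-binomial p = 0.0151, adjusted p = 0.615). It was 4.05 points with all libraries and 2.57 without library 1 of the second set. The 150-nt form of the exon, measured against the same skipping reads, was at 100% and 98.1% against 94.0% and 96.7%, and its difference went from 3.72 to 2.4 points without the same library. The authors' deposited table listed its FDR as 0.0054.

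The third TIAL1 event that passed was a 59-nt exon at chr10:121336359-121336417, which release 29 has in a transcript without a coding part. It was at 2.41% and 3.55% in first-set libraries against 1.25% and 1.49% in second-set ones, from 22, 31, 12 and 14 inclusion reads. Both libraries of the first set were higher, and the authors' deposited table listed an FDR of 0.0331. The difference went from 1.6 to 1.03 points without library 2 of the first set. The 376-nt stop exon of TIAL1 was at 2.58% and 2.42% in first-set libraries against 1.91% and 2.1% in second-set ones, and the authors' deposited table listed its FDR as 1.

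**Figure D2:**
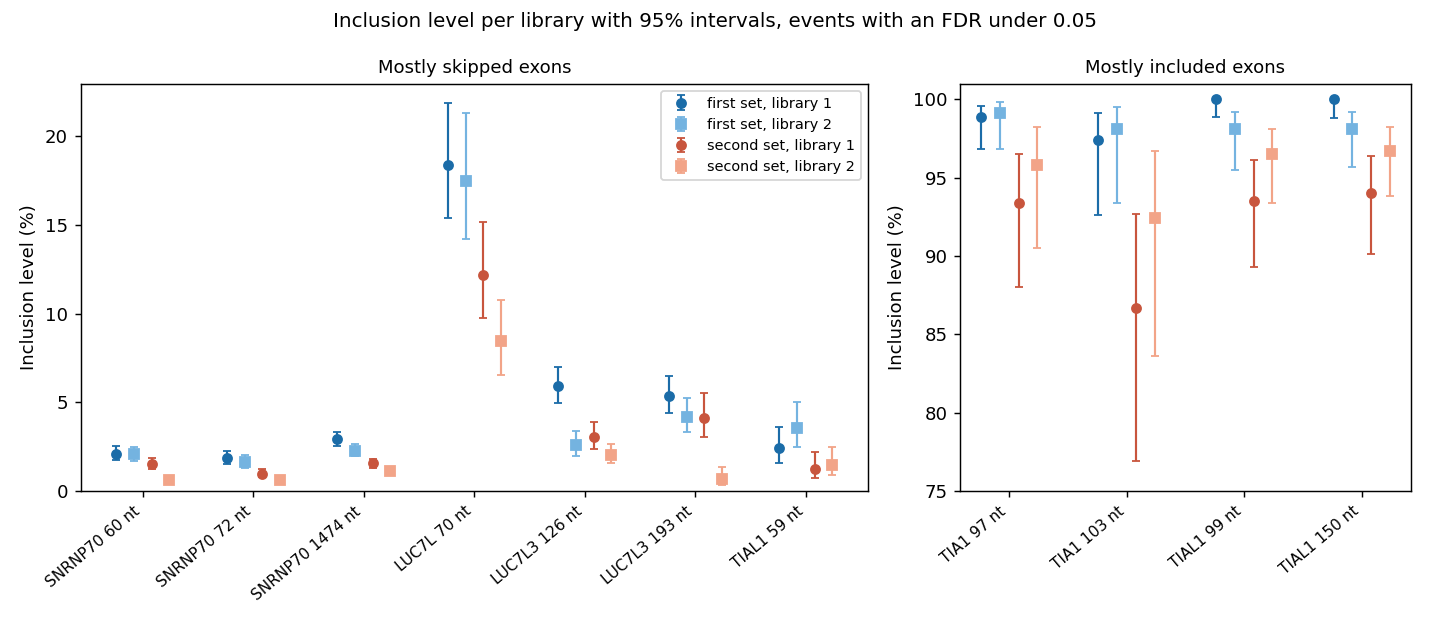
Inclusion level (%) of the 11 events with an FDR under 0.05 in the authors' deposited table, in each of the 4 libraries, with 95% Wilson intervals for counting error; the right panel starts at 75%. The LUC7L 70-nt exon has the highest levels among the mostly skipped exons, from 8.45% to 18.4%, and the LUC7L3 126-nt exon is the event in which the sets overlap.

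Sorted by what the exon carries, stop exons of NMD transcripts made up 10 of the 64 events, and 5 of these passed the FDR threshold in the authors' deposited table, 3 of them the SNRNP70 forms that share skipping reads. Of the 37 events of coding exons 4 passed, in LUC7L, TIA1 and TIAL1. The 11 events of exons without a coding part gave the other 2. The other 6 events gave none. A higher level in the first set was thus more of a stop exon in SNRNP70 and LUC7L3 (for LUC7L3 by 0.675 and 0.0786 points once 1 library was left out), more of a mostly skipped coding exon in LUC7L, and less skipping of a coding exon in TIA1 and TIAL1. The 2 exons without a coding part were a form of the TIA1 exon and the 59-nt exon of TIAL1.

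**Figure D3:**
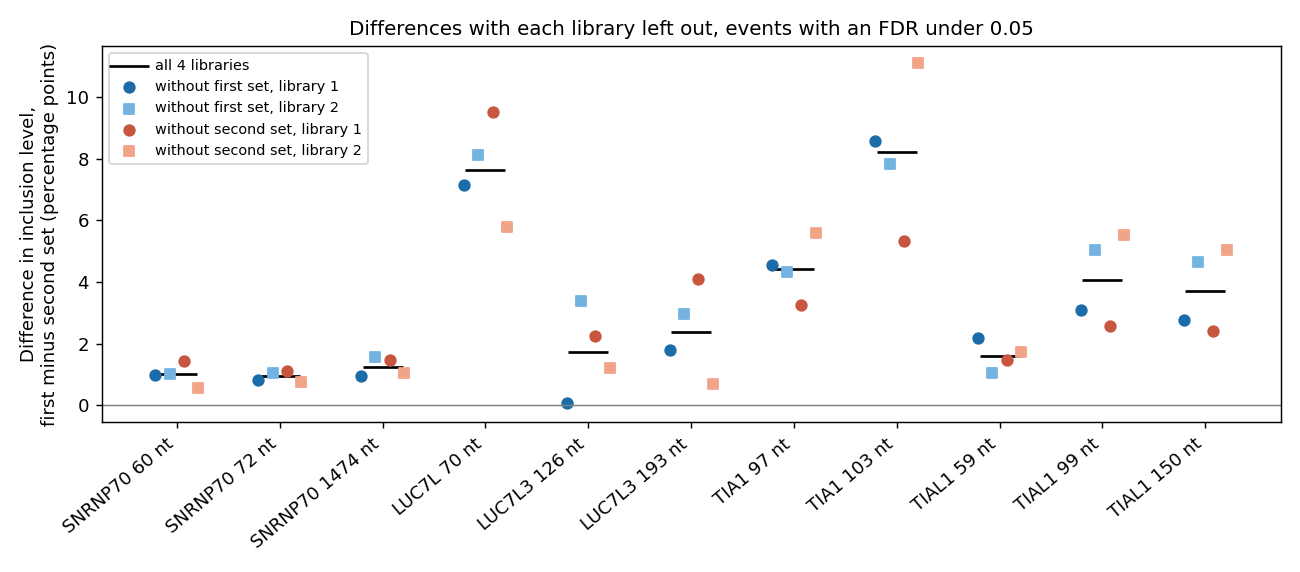
Difference in inclusion level (first minus second set, percentage points) of the same 11 events with all 4 libraries (black bars) and without each library (points). Where the sets do not overlap the sign cannot turn, so the plot shows only how far the size moves; the lowest point, at 0.0786 points, is the LUC7L3 126-nt exon without library 1 of the first set.

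Junction reads summed over the events of a gene show how many reads lay behind these levels. One read can count in several events, so the sums are not expression levels. After scaling by the median of ratios over genes, SNRNP70 had 32021 and 34439 reads in first-set libraries, against 48572 and 47159 in second-set ones, and SNRPA had 6873 and 7337 against 10049 and 11498. SNRPC had 21354 and 25801 against 36020 and 32020, and LUC7L had 7044 and 8853 against 11493 and 10585. In these 4 genes both libraries of the first set were lower than both of the second.

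By limma on the log2 sums, the difference was -0.53 ± 0.14 (SE, adjusted p = 0.00575) for SNRNP70 and -0.6 ± 0.13 (adjusted p = 0.00177) for SNRPA. By the same limma fit it was -0.53 ± 0.14 (adjusted p = 0.00657) for SNRPC and -0.48 ± 0.14 (adjusted p = 0.0102) for LUC7L. Such calls were common, since 38.4% of 10829 genes passed and 19.1% passed as lower in the first set. The limma differences of LUC7L2 (0.15 ± 0.13, adjusted p = 0.384), LUC7L3 (0.12 ± 0.13, adjusted p = 0.497), TIA1 (0.35 ± 0.16, adjusted p = 0.0831) and TIAL1 (-0.03 ± 0.14, adjusted p = 0.895) did not pass. Without library 1 of either set 1 of the 4 calls was left, that of SNRPA.

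The calls depended on the scaling. Scaled by total junction reads, the median gene was 0.4 higher in the first set on the log2 scale, and the split of calls over all genes was 3917 higher and 345 lower, in place of 2098 and 2063. The 4 lower genes then had limma differences of -0.13, -0.2, -0.14 and -0.09 and none passed. LUC7L2 (0.54, adjusted p = 0.0016), LUC7L3 (0.51, adjusted p = 0.00189) and TIA1 (0.74, adjusted p = 0.00151) passed as higher by limma under that scaling. With only the deepest event of each gene, which avoids counting a read in several events, the limma differences of SNRNP70 (-0.32, adjusted p = 0.103) and SNRPC (-0.37, adjusted p = 0.0768) no longer passed. That of TIA1 then passed as higher by limma (0.85, adjusted p = 0.00305), as it did with upper quartile scaling of the sums (0.41, adjusted p = 0.0432).

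**Figure D4:**
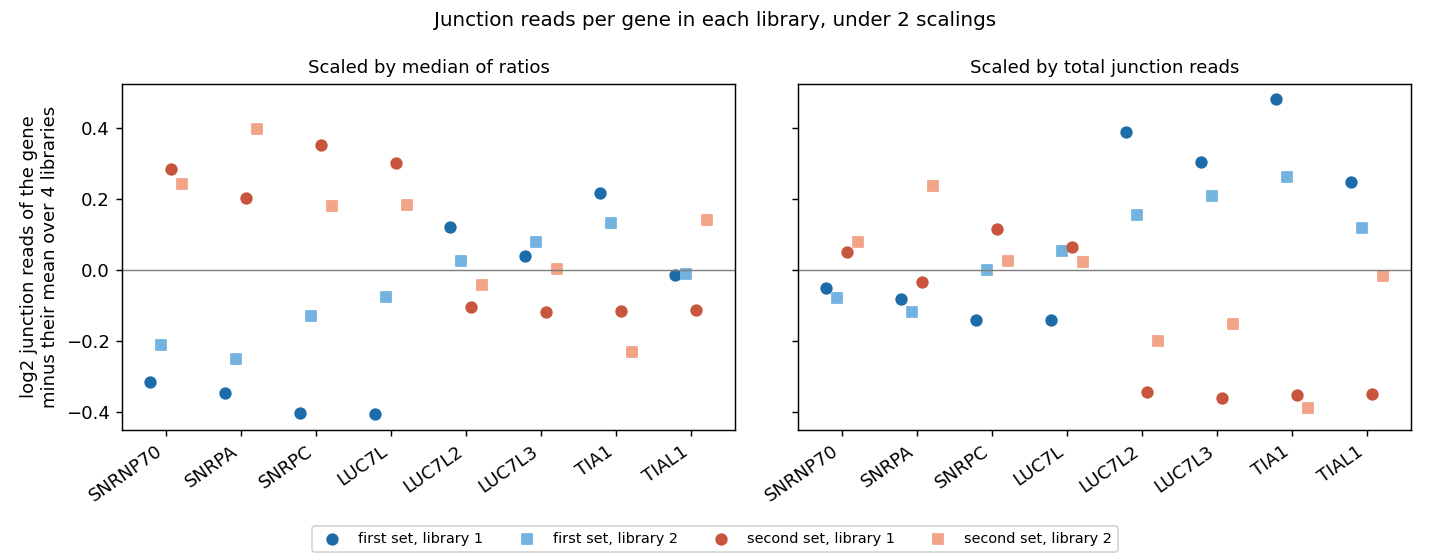
Junction reads of each gene in each library, as log2 reads minus the gene's mean over the 4 libraries, scaled by the median of ratios (left) and by total junction reads (right). On the left SNRNP70, SNRPA, SNRPC and LUC7L lie lower in the first set, and on the right LUC7L2, LUC7L3 and TIA1 lie higher in it.

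Events of the shared core of U1, and of other factors that are U1-associated or act at 5′ splice sites, were counted from 2 lists. Of the 8 genes of the Sm core, the ring of proteins that U1 shares with other spliceosomal snRNPs, 7 had tested events. None of their 28 events was called, and none had an FDR under 0.05 in the authors' deposited table. Of 12 other U1-associated and 5′ splice site factors 11 had tested events, and 3 of their 55 events were called (5.45%). The authors' deposited table had the called 100-nt exon of PRPF39, a relative of a yeast U1 protein, higher in the first set (0.105, FDR 0.0423). It had a 111-nt exon of PRPF40B (-0.27, FDR 0.0113, 31.25 reads on average) and a 75-nt exon of ZRANB2 (-0.124, FDR 0.00354) lower. The ZRANB2 exon was at 60.4% and 65.9% in first-set libraries against 74.6% and 76.4% in second-set ones. A 63-nt exon of ZMAT5 passed the FDR threshold alone (0.041, FDR 0.0405 in the authors' deposited table), higher in the first set.

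Junction reads summed over all events came to 38613055 and 39012939 for the first set's libraries, and to 42868431 and 43929373 for the second set's. Library 2 of the second set stood apart: of 13401 events at 5 to 95% inclusion, 19.6% to 22.2% differed by over 20 points between it and another library, against 7.87% to 11.7% between the other libraries. Without it the SNRNP70 60-nt, 72-nt and 1474-nt forms differed by 0.561, 0.759 and 1.04 points, the LUC7L 70-nt exon by 5.77, and the LUC7L3 193-nt and 126-nt exons by 0.675 and 1.21. Without it the TIA1 97-nt and 103-nt forms differed by 5.6 and 11.1 points, and the TIAL1 99-nt, 150-nt and 59-nt exons by 5.53, 5.04 and 1.72. The difference was thus smaller without this library in SNRNP70, LUC7L and LUC7L3, and larger in TIA1 and TIAL1. Of the markers of the 293T line, VIM had 99.9 to 127 RPM (junction reads scaled to the library total), PAX2 1.21 to 2.3 and KRT8 0.596 to 1.14. CDH2 separated the sets, with 30.0 and 21.9 RPM in first-set libraries against 7.7 and 11.6 in second-set ones, while both of the second set were the higher ones for VIM (118 and 127). Whether this bears on the exons was not tested. KRT18 and the markers of leukocytes, epithelia, hepatocytes and fibroblasts had no event in the table and could not be checked.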

How the data were processed

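Skipped exons were compared between 2 sets of 2 libraries. Per the submitters' processing notes, reads were processed with cutadapt and STAR on hg19, and per the file headers the table has the rMATS layout. The rMATS version and annotation are not given in the sources used here. For each event and library the authors deposited counts of inclusion and skipping junction reads, and the inclusion level as a fraction after division by form length. They also deposited the difference in level, a score from -1 to 1, and the p-value and FDR of each event. Recomputing the levels reproduced them within 0.0005.

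Members and gene lists were chosen with earlier results of these data known. Tests used events with a mean of at least 20 reads. Events named in full were those called, those with an authors' or quasi-binomial p under 0.05 and a difference of at least 0.05, those at 5 to 95% inclusion with at least 100 reads, and the deepest of each gene. The SNRNP70 stop exon forms, the LUC7L3 193-nt exon, the deep LUC7L3 126-nt event, the TIAL1 99-nt and 150-nt exons, and other exons given by values alone were chosen after their values were seen.

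The quasi-binomial model was fitted as designed, with its dispersion moderated over all tested events by limma 3.58.1 (R 4.3.3) and never under 1. After its results and a simulation had been seen, 3 other ways to set the dispersion were tried. One of them, a prior from events at 5 to 95% inclusion, gave 8 unadjusted member events in place of 13, and 0 adjusted in both. The planned edgeR and DESeq2 fits were not run, because cells that join 2 libraries could not be recorded as count columns. In their place the cells were split and limma was fitted with trend to log2 of gene sums plus 1, for genes with a mean of at least 10 reads. All fits were tested on simulated data with 200 changed events or genes. Without added scatter between libraries, the quasi-binomial model as designed recovered 49 of the changed events and limma on events recovered 0. With scatter added, both recovered 0. The limma fit to gene sums recovered nearly all changed genes (199 of 200). GENCODE release 29 (GRCh38) gave annotation and sequences. All 66 events were matched to it by gene identifier and exon spacing, and coordinates are hg19 as deposited, with 1-based starts.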

Additional observations from a re-analysis of the deposited data

How the results depend on the processing

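The count of 0 called member events became 1 with no read minimum and 2 with a difference of at least 0.05. It stayed at 0 with adjustment over tested events, and with a minimum of 10 reads, which added no member event. Stricter settings and leaving out a library could only keep or lose called events, so their 0 was fixed in advance. The FDR was not recomputed without a library. Without library 2 of the second set the TIA1 103-nt difference was 11.1 points, over the limit of the call rule. The 11 events at an FDR under 0.05 became 7 at an FDR under 0.01 and 7 with 1 event per skipping junction. The 0 adjusted quasi-binomial calls became 1 with no read minimum, and 3 each with a dispersion of at least 1 before moderation and with a robust dispersion prior. On simulated data with added scatter both of these settings made more false calls than true ones. Leaving out 1 library gave 0 to 6 quasi-binomial calls, with 6 without library 1 of the second set, and 1 to 4 calls on gene sums in place of 4. With the deepest event of each gene only there were 3 such calls, 2 lower and 1 higher, and with upper quartile scaling 5, of which 1 was higher. Of the differences of the 22 events named by rule or for their FDR, 10 moved by more than the spread between libraries without division by form length, and 1 without library 1 of the first set. Of the events named with an FDR of 1, the LUC7L 64-nt exon, the SNRPA 173-nt exon and the TIA1 119-nt exon changed sign with a library left out (-0.881 to 0.165 points, 0.151 to -0.319 and -1.4 to 5.41 at most). The causes were not tested. No paired analysis was possible because the cells of the table carry no replicate numbers. The edgeR and DESeq2 alternatives were not run. With 2 libraries a set, of unknown treatment, and some events resting on fewer than 15 skipping or inclusion reads a library, small differences cannot be told from scatter between libraries.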
